A study of Drosophila melanogaster with 15 samples.

Results

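The genes described here are 7 Drosophila genes around glycolysis. They encode lactate dehydrogenase (ImpL3), the glycerol phosphate shuttle enzymes Gpdh and Gpo-1, arginine kinase (Argk), the gluconeogenic enzymes Pepck and fbp, and the globin glob1. They were chosen by symbol among the 15682 symbols in the deposited counts, and all 7 were found and passed the filter on low counts. RNA came from filleted larvae, which are mainly body wall muscle with the overlying epidermis, and each of 5 genotypes had 3 libraries, 15 in all. Every genotype carried Mef2-Gal4, a driver whose activity is not limited to the body wall muscle, since gut muscle and part of the brain also show it. Mef2>Deaf1RNAi expresses a hairpin against the transcription factor Deaf1, and its control Mef2>whiteRNAi expresses a hairpin against the eye pigment gene w. Mef2>Deaf1 carries a transgene meant to overexpress Deaf1, and Mef2>Gsk3CA is labelled as expressing an active form of the kinase Gsk3. The control of both, Mef2>+, carries no UAS transgene. The same 3 Mef2>+ libraries therefore serve both comparisons. The labels give neither age nor sex of the larvae.

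As background, glycolysis consumes NAD+, and a cell that runs it fast must reoxidize the NADH that results. Lactate dehydrogenase does so by turning pyruvate into lactate, and in insects the glycerol phosphate shuttle does so by passing the electrons to the mitochondrion. Growing fly larvae are known for high activity of both routes. Arginine kinase keeps a store of phosphoarginine, the invertebrate counterpart of creatine phosphate, from which ATP is rebuilt during contraction.

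In the BDGP6 annotation ImpL3 (now Ldh, FBgn0001258) lies on chromosome arm 3L from 6259105 to 6262694, and Argk (now Argk1, FBgn0000116) on 3L from 9048781 to 9066027. Gpdh (now Gpdh1, FBgn0001128) lies on 2L from 5943643 to 5948968 and fbp (FBgn0032820) on 2L from 19761587 to 19764136. The globin gene glob1 (FBgn0027657) lies on 3R from 15896926 to 15904643, and Gpo-1 (now Gpo1, FBgn0022160) and Pepck (now Pepck1, FBgn0003067) lie on 2R. All values are for whole genes. Reads of Gpdh can also come from the antisense gene lncRNA:CR44986, which overlaps 697 bp of its exons, and reads of Pepck cannot be told from those of CG45087, which shares all 2486 bp of its transcript. Neither overlapping gene is a symbol in the counts, and whether the counting used strand was not given in the sources used here.

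The libraries held 16186361 to 32756446 counts on genes. Deaf1 itself stood at 22.9 ± 1.2 CPM (normalized counts per 1000000 counts, mean ± SD, n = 3 libraries) in the Deaf1 RNAi libraries, against 41.8 ± 2.7 CPM in their hairpin control, a fall that passed the test (log2 fold change −0.87, SE 0.10, adjusted p = 9.0e-04, where adjusted p under 0.05 counts as passing). It stood at 43.2 ± 3.9 CPM in Mef2>Deaf1 and 34.8 ± 2.7 CPM in Mef2>+, which missed the threshold (0.31, SE 0.10, adjusted p = 0.0581). The Gsk3 gene sgg did not differ beyond its error between Mef2>Gsk3CA and Mef2>+ (0.12, SE 0.24, adjusted p = 0.779). It stood at 339, 335 and 526 CPM in Mef2>Gsk3CA (replicates 1, 2 and 3), against 418, 433 and 254 CPM in Mef2>+. Only replicate 3 of Mef2>Gsk3CA lay above every Mef2>+ library. The Mef2>Gsk3CA libraries are therefore called the libraries labelled Gsk3CA. All 17 muscle markers were detected in every genotype. Their summed counts made up 7.10 to 7.30% of Mef2>Deaf1RNAi libraries and 2.19 to 5.77% of Mef2>whiteRNAi libraries, with the low value in replicate 1 and the high one in replicate 3. They made up 2.55 to 3.70% in Mef2>Deaf1, 5.03 to 8.26% in the libraries labelled Gsk3CA, and 7.26 to 11.2% in Mef2>+, where replicate 3 was the high one. In these bulk samples fewer muscle cells and less RNA per muscle cell cannot be told apart. Reads outside any annotated gene took 5.30 to 6.75% of the entries in the 12 libraries of the other genotypes and 3.36 to 3.87% in Mef2>+ libraries.

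Per kilobase of annotated exon, arginine kinase was the most abundant of the 7 mRNAs at 1318 CPM per kb averaged over the 15 libraries. Pepck (307 CPM per kb) and ImpL3 (299 CPM per kb) came next, then fbp (44.3), Gpdh (38.0), Gpo-1 (11.6) and glob1 (6.82). The 7 genes together took 0.219 to 1.09% of the counts on genes, and most of this was Argk, at 0.149 to 0.808%. Over the 15 libraries the highest level was 10.02 times the lowest for Gpo-1, 7.71 times for ImpL3, 6.11 times for Argk, and only 2.34 times for glob1.

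**Figure D1:**
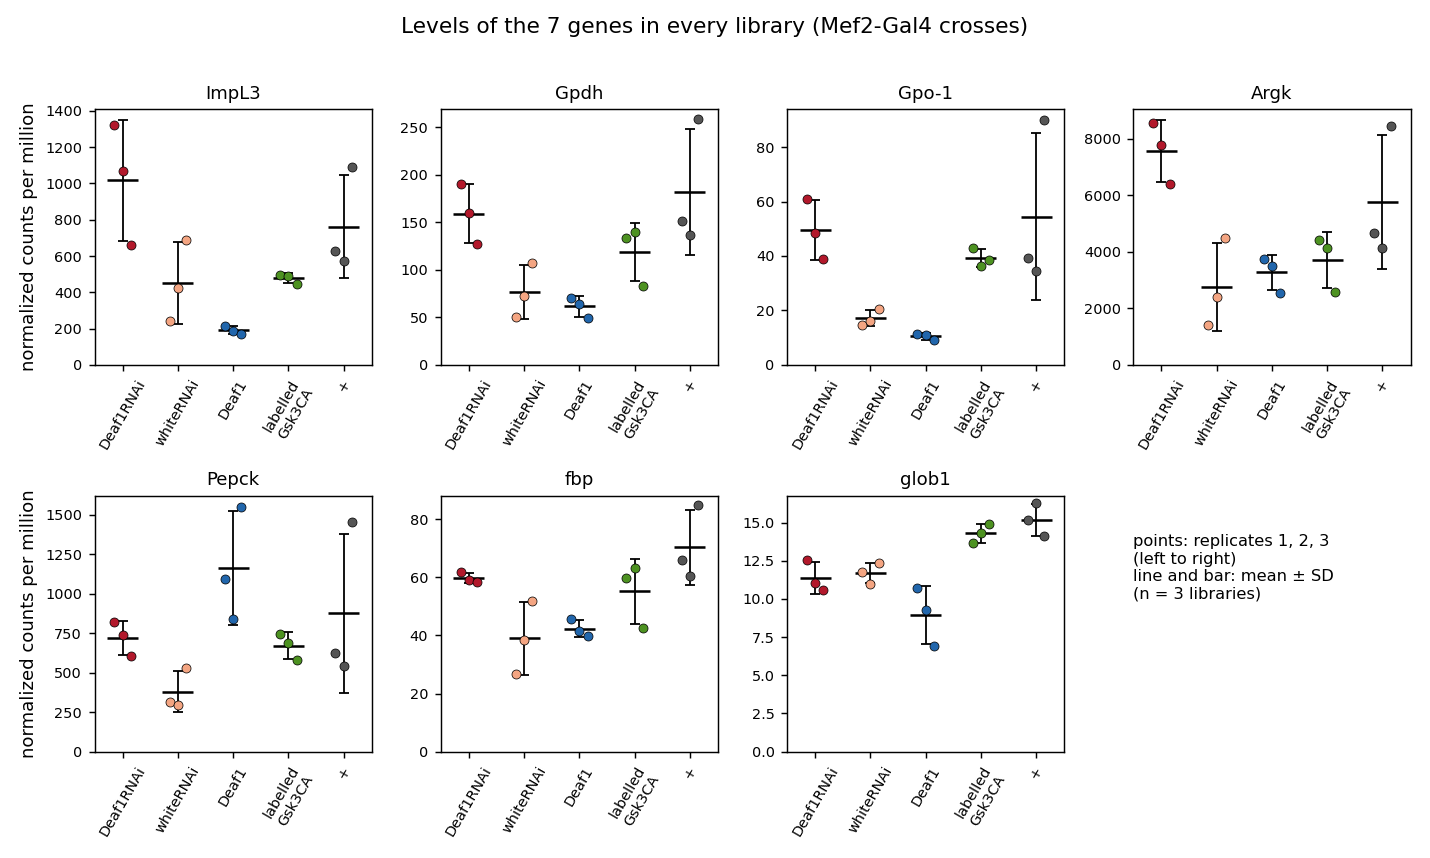
CPM (vertical axes, from 0) of the 7 genes in each of the 15 libraries, by genotype; points are replicates 1 to 3 from left to right, and lines with bars are means ± SD (n = 3). ImpL3, Gpdh and Gpo-1 have their lowest mean in Mef2>Deaf1, Pepck has its highest mean there, and replicate 3 of Mef2>+ stands above its 2 fellows for 6 genes, all but glob1.

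ImpL3 encodes the only lactate dehydrogenase among the 7, the enzyme that makes lactate from pyruvate. Its level was 1322, 1068 and 663 CPM in Mef2>Deaf1RNAi (replicates 1, 2 and 3), against 240.2, 425 and 688 CPM in Mef2>whiteRNAi. The genotypes overlapped, because replicate 3 of the control stood above replicate 3 of Deaf1 RNAi. The log2 fold change of 1.17 (SE 0.36, 95% interval 0.39 to 1.96) missed the threshold with an adjusted p of 0.0646, and without replicate 3 of Mef2>whiteRNAi it was 1.61 and passed (adjusted p = 0.0155). That was the only pass among the 6 fits without a library, which gave 0.87 to 1.61 with adjusted p up to 0.209. With DESeq2 in place of edgeR the adjusted p was 0.0117, the only pass among 8 other settings. In Mef2>Deaf1 the level was 216, 189 and 171 CPM, against 628, 570.2 and 1089 CPM in Mef2>+. Every Mef2>Deaf1 library lay far under every control library, and the 3 agreed closely with each other. ImpL3 fell to 0.252 of the Mef2>+ level (log2 fold change −1.99, SE 0.37, adjusted p = 0.00506), and it passed in each of the 6 fits that left out a library (−2.16 to −1.64).

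The glycerol phosphate shuttle has a cytosolic and a mitochondrial enzyme. Gpdh, the cytosolic glycerol-3-phosphate dehydrogenase, uses NADH to make glycerol-3-phosphate from dihydroxyacetone phosphate. It stood at 190.2, 160.1 and 128 CPM in Mef2>Deaf1RNAi, against 50.4, 72.3 and 107 CPM in Mef2>whiteRNAi. The genotypes did not overlap, but the gap between the nearest libraries was narrow. The log2 fold change of 1.06 (SE 0.31, 95% interval 0.38 to 1.74, adjusted p = 0.0569) missed the threshold and passed with DESeq2 (adjusted p = 0.0125), with limma voom (0.0475) and without replicate 3 of Mef2>whiteRNAi (1.37, adjusted p = 0.0215). The last was the only pass among the 6 fits without a library, which gave 0.83 to 1.37 with adjusted p up to 0.213. In Mef2>Deaf1 it stood at 70.3, 64.2 and 49.7 CPM, against 151, 137 and 259 CPM in Mef2>+. Gpdh fell to 0.337 of the control level, with no overlap (log2 fold change −1.57, SE 0.32, adjusted p = 0.00762), and leaving out a library gave −1.74 to −1.23, with every fit passing.

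Gpo-1, the mitochondrial glycerophosphate oxidase, takes the electrons from glycerol-3-phosphate and hands them to the respiratory chain. It stood at 60.9, 48.5 and 38.8 CPM in Mef2>Deaf1RNAi, against 14.8, 16.0 and 20.5 CPM in Mef2>whiteRNAi. Here the libraries of the 2 genotypes were well apart. Gpo-1 rose 2.89-fold (log2 fold change 1.53, SE 0.31, adjusted p = 0.0120), and of the 6 fits without a library only that without replicate 1 of Mef2>whiteRNAi missed the threshold (1.44, adjusted p = 0.0643). In Mef2>Deaf1 it stood at 11.5, 11.05 and 8.96 CPM, against 39.2, 34.3 and 89.8 CPM in Mef2>+. This was the largest fall among the 7 genes, to 0.193 of the Mef2>+ level (log2 fold change −2.37, SE 0.32, adjusted p = 9.5e-04). Without replicate 3 of Mef2>+, the high library, it was −1.81, and all 6 such fits passed.

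Argk encodes the arginine kinase that charges phosphoarginine from ATP. Its level was 8563, 7773 and 6396 CPM in Mef2>Deaf1RNAi, against 1401, 2398 and 4479 CPM in Mef2>whiteRNAi. The control libraries were spread widely, yet all lay under the Deaf1 RNAi libraries. Argk rose 2.75-fold (log2 fold change 1.46, SE 0.40, adjusted p = 0.0413). That call was fragile: it held only without replicate 3 of Mef2>whiteRNAi (1.99, adjusted p = 0.00702), while leaving out any of the other 5 libraries gave 1.14 to 1.56 with adjusted p from 0.0846 to 0.142. It was also lost without the filter on low counts (adjusted p = 0.0549) and with only these 6 libraries in the model (0.0920). In Mef2>Deaf1 the level was 3750, 3516 and 2556 CPM, against 4684, 4134 and 8477 CPM in Mef2>+. The genotypes did not overlap, but the log2 fold change of −0.82 (SE 0.39, 95% interval −1.67 to 0.038) missed the threshold (adjusted p = 0.213).

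Pepck and fbp act in gluconeogenesis, the reverse path. Pepck, phosphoenolpyruvate carboxykinase, turns oxaloacetate into phosphoenolpyruvate. It stood at 820.4, 739 and 606 CPM in Mef2>Deaf1RNAi, against 312, 296 and 529 CPM in Mef2>whiteRNAi, and at 1096, 842 and 1552 CPM in Mef2>Deaf1, against 628, 544 and 1454 CPM in Mef2>+. The Deaf1 RNAi libraries lay above their control libraries. The Mef2>Deaf1 libraries overlapped Mef2>+ because replicate 3 of Mef2>+ stood above replicates 1 and 2 of Mef2>Deaf1. Neither difference passed the test (0.93, SE 0.36, adjusted p = 0.135, and 0.41, SE 0.36, 95% interval −0.37 to 1.19, adjusted p = 0.518). Pepck was the one gene of the 7 with a positive difference under Deaf1 overexpression.

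Fructose-1,6-bisphosphatase (fbp) removes the phosphate that phosphofructokinase adds. It stood at 61.7, 59.0 and 58.3 CPM in Mef2>Deaf1RNAi, against 26.6, 38.5 and 51.8 CPM in Mef2>whiteRNAi. The groups did not overlap, and the difference of 0.61 (SE 0.21, adjusted p = 0.0974) missed the threshold. It passed without replicate 3 of Mef2>whiteRNAi (0.87, adjusted p = 0.0182), the only pass among the 6 fits without a library (0.40 to 0.87, adjusted p up to 0.315). In Mef2>Deaf1 it stood at 45.5, 41.6 and 39.9 CPM, against 65.8, 60.4 and 84.9 CPM in Mef2>+. fbp fell to 0.602 of the control level (log2 fold change −0.73, SE 0.21, adjusted p = 0.0439), just inside the threshold. The call was lost in all 6 fits without a library (−0.83 to −0.57, adjusted p from 0.0505 to 0.162), with limma voom (adjusted p = 0.0522), with DESeq2-type size factors in edgeR (0.0505), without the filter on low counts (0.0525) and with the replicate number as a block (−0.72, adjusted p = 0.0841).

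The oxygen-binding globin glob1 is known in flies from tracheae and fat body. It stood at 12.6, 11.03 and 10.6 CPM in Mef2>Deaf1RNAi, against 11.8, 11.01 and 12.3 CPM in Mef2>whiteRNAi. These libraries overlapped, and the 95% interval of the log2 fold change ran from −0.33 to 0.25 (−0.040, SE 0.13, adjusted p = 0.904). In Mef2>Deaf1 it stood at 10.7, 9.27 and 6.93 CPM, against 15.1, 16.3 and 14.1 CPM in Mef2>+. glob1 fell to 0.591 of the control level (log2 fold change −0.76, SE 0.13, adjusted p = 0.00388), without overlap and in every fit without a library (−0.90 to −0.60).

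Counted over the 7 genes, 2 rose and none fell under Deaf1 RNAi (Gpo-1 and Argk), where 8.81% of all 10930 genes tested passed in either direction and 5.48% rose. The 2 genotypes did not overlap, with Deaf1 RNAi higher, for 5 of the 7, against 14.9% of all genes. The median log2 fold change was 1.06 over the 7 and −0.052 over all genes tested. Under Deaf1 overexpression 5 fell (ImpL3, Gpdh, Gpo-1, fbp and glob1) and none rose, where 12.4% of genes passed and 7.38% fell. The libraries did not overlap, with Mef2>Deaf1 lower, for 6 of the 7, against 17.4% of all genes, and the median was −0.82, against −0.017 over all genes.

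**Figure D2:**
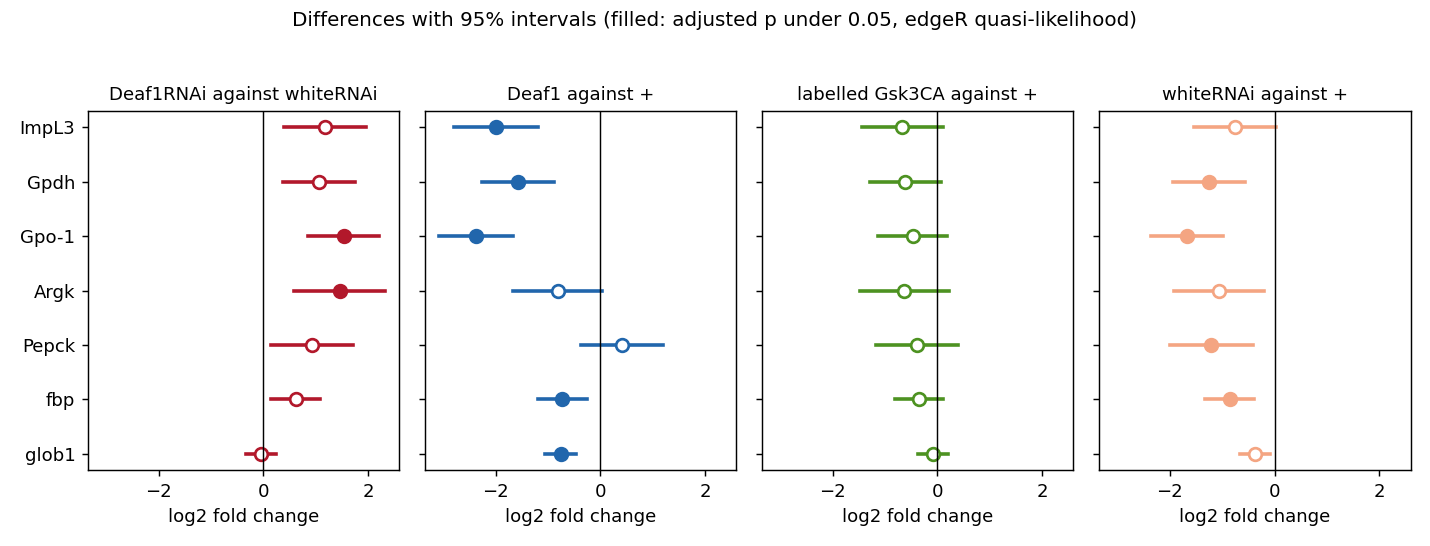
Log2 fold changes (horizontal axes) of the 7 genes in 4 comparisons, with 95% intervals from edgeR's quasi-likelihood fit; filled points passed an adjusted p of 0.05. Gpo-1 is filled in every panel but that of the libraries labelled Gsk3CA, where no gene is filled.

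The knockdown and the overexpression share no library, so their effects could be set against each other in the model. This difference of effects contains in full the gap between the 2 controls, Mef2>+ minus Mef2>whiteRNAi. All 7 genes were lower in Mef2>whiteRNAi than in Mef2>+ (median log2 fold change −1.06), which adds to a positive difference. Deaf1 RNAi was not tested directly against Mef2>Deaf1 here. The Deaf1 RNAi effect minus the overexpression effect was positive and passed for 6 of the 7 genes, where 16.2% of all genes passed and 9.42% with a positive difference. It was largest for Gpo-1 (3.91, SE 0.45, adjusted p = 1.7e-04) and ImpL3 (3.16, SE 0.51, adjusted p = 0.00148), followed by Gpdh (2.63, adjusted p = 0.00195), Argk (2.27, adjusted p = 0.0162), fbp (1.35, adjusted p = 0.0103) and glob1 (0.72, adjusted p = 0.0226). For glob1, whose estimate under Deaf1 RNAi was near 0, the call was lost on leaving out replicate 1 or 2 of Mef2>+, replicate 1 or 2 of Mef2>whiteRNAi or replicate 1 of Mef2>Deaf1RNAi (adjusted p from 0.0520 to 0.0667). Pepck did not differ beyond its error (0.52, 95% interval −0.59 to 1.63, adjusted p = 0.549).

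The 2 controls were themselves far apart for these genes. All 7 had lower means in Mef2>whiteRNAi than in Mef2>+, and 4 fell there, where 16.5% of all genes passed and 10.2% fell. Gpo-1 stood at 17.1 ± 3.0 CPM in Mef2>whiteRNAi and 54.4 ± 30.7 CPM in Mef2>+ (SD, n = 3 each), a log2 fold change of −1.67 (SE 0.31, adjusted p = 0.00494). Gpdh differed by −1.25 (adjusted p = 0.0190), Pepck by −1.21 (adjusted p = 0.0410) and fbp by −0.85 (adjusted p = 0.0193). The other 3, Argk (−1.06, adjusted p = 0.0866), ImpL3 (−0.76, adjusted p = 0.157) and glob1 (−0.37, adjusted p = 0.0750), missed the threshold. Without replicate 3 of Mef2>+ the calls of Gpdh (−0.92), Pepck (−0.63) and fbp (−0.70) were lost, and they were also lost without replicate 1 of Mef2>whiteRNAi (−1.03, −1.08 and −0.64) or replicate 2 (−1.22, −1.06 and −0.85). Argk passed without replicate 3 of Mef2>whiteRNAi (−1.60, adjusted p = 0.0136), as did ImpL3 (−1.20, adjusted p = 0.0358). For each this was the only pass among the 6 fits without a library. With only these 6 libraries in the model all 4 calls were lost (adjusted p from 0.0648 to 0.148), while DESeq2 called Argk (0.0377) and glob1 (0.0471) as well.

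The direction of several differences therefore turned on which control was used. Set against Mef2>+ in place of its own hairpin control, Deaf1 RNAi gave −0.20 for Gpdh, −0.14 for Gpo-1, −0.28 for Pepck and −0.24 for fbp, with 0.42 for ImpL3, 0.39 for Argk and −0.41 for glob1, and none of the 7 passed. Set against Mef2>whiteRNAi, Deaf1 overexpression gave −1.23 for ImpL3 (adjusted p = 0.0662), −0.70 for Gpo-1 (0.231), −0.32 for Gpdh (0.605) and −0.38 for glob1 (0.118), with 0.25 for Argk and 0.12 for fbp. Only Pepck passed there, and it was higher in Mef2>Deaf1 (1.62, adjusted p = 0.0240). ImpL3, Gpdh, Gpo-1 and glob1 were thus lower in Mef2>Deaf1 than in either control by their estimates, but with calls against Mef2>+ only. Deaf1 itself overlapped between Mef2>Deaf1 (40.6, 41.4 and 47.7 CPM) and Mef2>whiteRNAi (42.9, 43.8 and 38.7 CPM).

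In the libraries labelled Gsk3CA none of the 7 genes passed against Mef2>+, where 14.1% of all genes did. None reached an unadjusted p under 0.05 either, which 34.8% of all genes did, and DESeq2 and limma voom also called none. Of all genes passing, 567 were higher and 969 lower, a split that turned to 759 and 543 with DESeq2-type size factors. ImpL3 was the one member whose libraries did not overlap, where 19.8% of all genes were lower without overlap. It stood at 495, 492 and 448 CPM, against 628, 570.2 and 1089 CPM in Mef2>+ (−0.67, 95% interval −1.45 to 0.10, adjusted p = 0.202). Without the normalization its shares of the counts on genes overlapped. Gpo-1 stood at 42.9, 36.3 and 38.4 CPM in the libraries labelled Gsk3CA, inside the range of Mef2>+, and its difference of −0.48 (adjusted p = 0.295) became 0.066 without replicate 3 of Mef2>+. Argk stood at 4417, 4155 and 2586 CPM, Gpdh at 134, 139.5 and 83.5 CPM and fbp at 59.7, 63.3 and 42.5 CPM, with replicate 3 the low library for each. Pepck stood at 745, 688 and 578 CPM, between the high and the low Mef2>+ libraries. The level of glob1, at 13.6, 14.3 and 14.9 CPM, differed by −0.086 (95% interval −0.37 to 0.20), and the sign was positive with DESeq2-type size factors (0.010).

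Set directly against the libraries labelled Gsk3CA, Mef2>Deaf1 was lower for 4 of the 7 genes, where 30.2% of all genes passed and 17.1% were lower. These were Gpo-1 (−1.90, SE 0.31, adjusted p = 0.00248), ImpL3 (−1.31, adjusted p = 0.0209), Gpdh (−0.95, adjusted p = 0.0393) and glob1 (−0.67, adjusted p = 0.00598). The calls of ImpL3 and Gpdh held only in the fit without replicate 3 of the libraries labelled Gsk3CA (−1.48 and −1.27) among the 6 that left out a library, with adjusted p of 0.0515 to 0.0647 for ImpL3 and 0.072 to 0.125 for Gpdh in the other 5, and the call of Gpdh was lost with the replicate number as a block (adjusted p = 0.0646). Argk (−0.18, 95% interval −1.03 to 0.67), fbp (−0.38, 95% interval −0.85 to 0.083) and Pepck (0.80, 95% interval 0.0098 to 1.58, adjusted p = 0.114) did not pass. Without replicate 3 of the libraries labelled Gsk3CA fbp passed (−0.65, adjusted p = 0.0362), its only pass among the 6 fits without a library.

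Most of the 7 genes followed the muscle markers from library to library. The TMM-scaled CPM summed over the muscle markers differed between genotypes without overlap in each comparison, whereas their unscaled shares of the libraries overlapped for the libraries labelled Gsk3CA and Mef2>+. The sums differed by 1.25 on the log2 scale for Deaf1 RNAi against white RNAi, −1.63 for Deaf1 overexpression against Mef2>+, −0.57 for the libraries labelled Gsk3CA and −1.47 for Mef2>whiteRNAi, both against Mef2>+. Of the 17 muscle genes, 10 rose and 1 fell under Deaf1 RNAi (median 1.07), 15 fell under overexpression (median −1.33), none passed in the libraries labelled Gsk3CA (median −0.55) and 16 fell in Mef2>whiteRNAi against Mef2>+ (median −1.24). Over the 15 libraries, Pearson's r between log2 CPM of a member and log2 of the muscle sum was 0.98 for Gpdh, 0.95 for fbp, 0.92 for Gpo-1, 0.88 for ImpL3 and 0.86 for Argk. It was 0.64 for glob1 and 0.23 for Pepck. With each genotype's mean removed, r was 0.97 for both Argk and fbp, 0.92 for Gpdh, 0.86 for ImpL3, 0.61 for Gpo-1, 0.56 for Pepck and 0.21 for glob1. These coefficients are a description, since the libraries share genotypes and scaling. How common such values are among all genes tested was not computed.

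**Figure D3:**
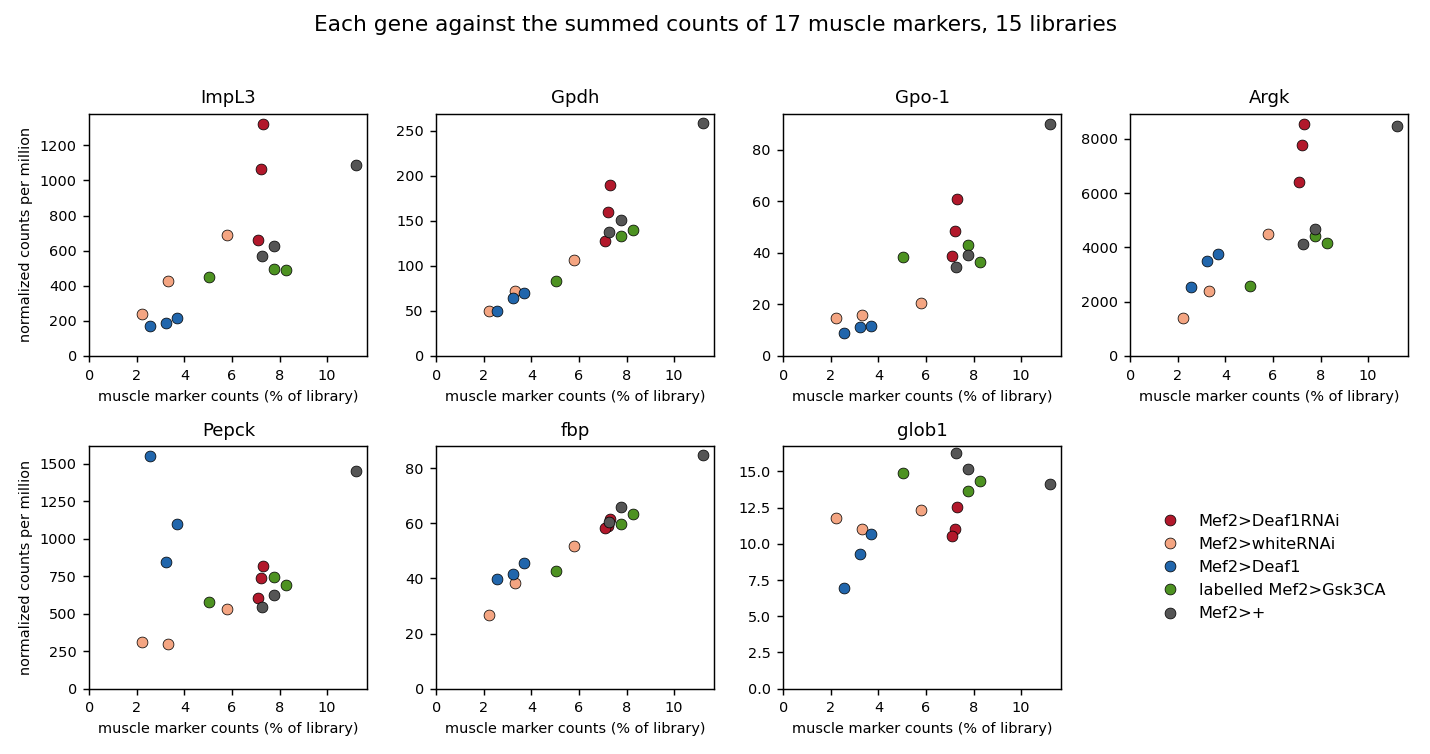
CPM of each gene (vertical axes) against the summed counts of 17 muscle markers as a percentage of the library (horizontal axes), 15 libraries coloured by genotype. Gpdh and fbp lie along a single rising band, while for Pepck the 3 Mef2>Deaf1 libraries stand above the Mef2>whiteRNAi libraries at a like muscle share.

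Taken per count of muscle transcript, a measure added after the data had been seen, ImpL3 differed by −0.0070 on the log2 scale between Deaf1 RNAi and white RNAi, and Gpdh by −0.15, with overlapping libraries. Gpo-1 differed by 0.27 with overlap and Argk by 0.36 without it. fbp differed by −0.58 and glob1 by −1.29, both without overlap, and Pepck by −0.28 with overlap. A gene whose CPM is level between genotypes shifts by the size of the muscle difference with the sign turned, so these ratios describe proportion to muscle mRNA only. For Deaf1 overexpression against Mef2>+, Gpdh differed by 0.10 with overlap. ImpL3 (−0.30) and Gpo-1 (−0.62) were lower per muscle count without overlap. Argk (0.87), fbp (0.91) and glob1 (0.85) stood higher per muscle count without overlap, their differences in CPM being smaller in size than that of the muscle sum, and Pepck stood 2.14 higher, also without overlap. In the libraries labelled Gsk3CA the ratios of ImpL3 (−0.042), Gpdh (−0.024) and Argk (−0.025) were close to those of Mef2>+, with overlap. Gpo-1 (0.23), Pepck (0.32) and glob1 (0.49) stood higher per muscle count with overlap and fbp (0.21) without it. Between the controls ImpL3 (0.64), fbp (0.58) and glob1 (1.10) stood higher per muscle count in Mef2>whiteRNAi than in Mef2>+ without overlap, and Gpdh (0.21), Gpo-1 (−0.079), Argk (0.32) and Pepck (0.35) overlapped. The part of the muscle transcripts in the differences of these genes was not tested.

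Pepck and glob1 are known also from fat body, and glob1 from tracheae. The summed level of 7 fat body genes was 2921 to 5145 CPM in Mef2>Deaf1RNAi and 7494 to 11045 CPM in Mef2>whiteRNAi. Of these genes, 1 fell under Deaf1 RNAi (Fbp1, −1.42, adjusted p = 0.0333) and none rose, with a median of −1.02. All 7 estimates were negative there, whereas that of Pepck was positive. The sum was 3555 to 7006 CPM in Mef2>Deaf1 and 2650.3 to 7275 CPM in Mef2>+, with 1 gene higher (Lsp1alpha, 3.87, adjusted p = 0.0325) and a median of 0.21. The 4 tracheal markers summed to 434 to 552 CPM in Mef2>Deaf1 and 973 to 1938 CPM in Mef2>+, where 1 fell (verm, −1.63, adjusted p = 0.0469). Most of this sum is verm and serp (−1.30, adjusted p = 0.0979), while btl (0.24, higher without overlap) and trh (0.20) had positive estimates that missed the threshold. The summed levels of 5 hemocyte markers were 1096 to 1334 CPM in Mef2>Deaf1 and 715 to 991 CPM in Mef2>+, and 4 of them rose. The part of these cell types in the values of Pepck and glob1 was not tested.

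The genes for the salivary glue proteins, which larvae make late in their last stage, had larger estimates than any member in both Deaf1 comparisons. The summed level of 6 of them was 9.16, 614 and 1341 CPM in Mef2>Deaf1RNAi (replicates 1, 2 and 3), against 26.8, 76.2 and 19.4 CPM in Mef2>whiteRNAi, so replicates 2 and 3 of Deaf1 RNAi stood apart from the rest. It was 1.28, 6.15 and 15.3 CPM in Mef2>Deaf1, against 113.5, 104 and 11.5 CPM in Mef2>+. All 6 estimates were positive under Deaf1 RNAi (3.69 to 5.81), with overlap and 1 of them passing (Sgs1, adjusted p = 0.0211), and all 6 were negative under overexpression (median −3.57) with none passing in edgeR and 4 at an unadjusted p under 0.05. In the difference of the effects all 6 passed (median 7.45). Within Mef2>Deaf1RNAi, all 7 members were highest in replicate 1, the library with the low glue level, and lowest in replicate 3. This order was not particular to the members, since the muscle sum also ran 82856, 80131 and 76197 CPM (replicates 1, 2 and 3). The part of salivary gland RNA in the members' values was not tested.

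Several members have related copies elsewhere in the genome, 10 of which were looked up: CG13334 (related to ImpL3), CG3215 and CG43343 (Gpdh2 and Gpdh3), CG2137 and CG7311 (Gpo2 and Gpo3), CG5144 and CG4546 (related to Argk, the first now Argk2), CG10924 (Pepck2), and glob2 and glob3. All but glob3 passed the filter on low counts. Outside the libraries labelled Gsk3CA 8 of the 10 stayed under 10 CPM. CG13334, glob2 and glob3 had no count in any Mef2>Deaf1RNAi library, which allows up to 3 counts of a gene in each. In the libraries labelled Gsk3CA replicates 1 and 2 were high for all of these 8 and replicate 3 lower. CG4546 stood at 38.8, 41.1 and 8.93 CPM there, against 0.511, 0.135 and 7.36 CPM in Mef2>+. CG43343 stood at 49.0, 55.7 and 16.3 CPM, against 10.8, 11.2 and 19.4 CPM in Mef2>+, and it rose (1.55, SE 0.37, adjusted p = 0.0205). CG5144 stood at 8.77, 9.36 and 1.93 CPM, against 0.409, 1.15 and 2.05 CPM, and it also rose (2.47, SE 0.73, adjusted p = 0.0434). The genotypes overlapped for CG43343 and CG5144, and did not for CG4546.

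These 2 rises were fragile. Without replicate 1 or 2 of Mef2>+, or replicate 1 or 2 of the libraries labelled Gsk3CA, CG43343 gave 1.25 to 1.39 (adjusted p from 0.0734 to 0.0860) and CG5144 gave 2.03 to 2.41 (adjusted p from 0.112 to 0.138). With only these 6 libraries in the model both calls were lost (adjusted p = 0.156 for CG43343 and 0.157 for CG5144), and that of CG5144 also with limma voom (0.0940) and without the filter on low counts (0.0510). Without replicate 3 of either genotype both passed, and CG13334 and CG4546 then passed too (CG4546 at 6.39 without replicate 3 of Mef2>+ and 3.99 without replicate 3 of the libraries labelled Gsk3CA). CG7311 and glob2 passed as well without replicate 3 of Mef2>+. With all libraries the other tested copies except CG10924 missed the threshold with positive estimates (adjusted p from 0.0625 to 0.174). Set against Mef2>Deaf1, 7 of the copies were lower in Mef2>Deaf1 than in the libraries labelled Gsk3CA and CG10924 was higher. Only CG43343 (−1.83) and CG5144 (−4.60) kept this call in all 6 fits without a library, and with only the genotypes compared in the model CG43343 lost it (−1.92, adjusted p = 0.0559), as did CG13334, CG3215, CG7311, CG4546 and CG10924 (adjusted p from 0.0572 to 0.119). CG13334, CG3215, CG7311, CG4546 and glob2 lost it without replicate 1 or 2 of either genotype (adjusted p from 0.0604 to 0.109), and CG10924 (0.93) lost it without replicate 2 (adjusted p = 0.0514) or 3 (0.59, adjusted p = 0.0683) of the libraries labelled Gsk3CA, while CG2137 passed without replicate 3 of either genotype. The summed level of 9 testis genes followed the same libraries, at 67.3 to 270.0 CPM in those labelled Gsk3CA and 32.8 to 66.1 CPM in Mef2>+. Of the 7 testis genes tested 1 rose against Mef2>+ (median 3.51), and the part of testis RNA in the levels of these copies was not tested.

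**Figure D4:**
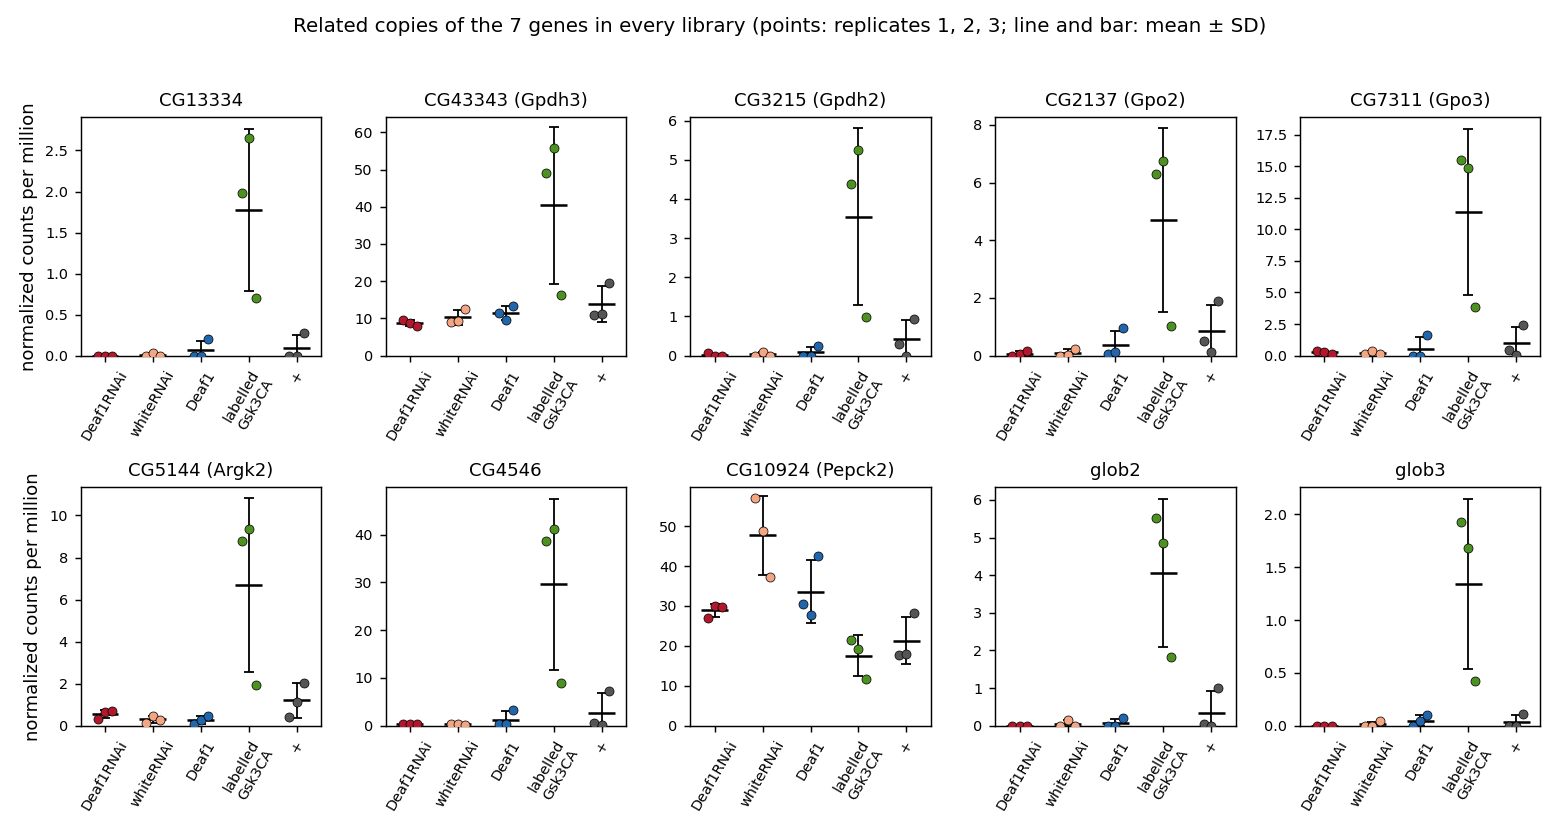
CPM (vertical axes, from 0) of 10 related copies in the 15 libraries; points are replicates 1 to 3 from left to right, lines with bars are means ± SD (n = 3). Replicates 1 and 2 of the libraries labelled Gsk3CA stand highest for all but CG10924, which is highest in Mef2>whiteRNAi.

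CG10924 (Pepck2), a second phosphoenolpyruvate carboxykinase whose gene lies beside Pepck, had differences of the opposite sign to those of Pepck under Deaf1 RNAi. It stood at 27.0, 29.9 and 29.7 CPM in Mef2>Deaf1RNAi, against 57.0, 48.7 and 37.4 CPM in Mef2>whiteRNAi. It stood at 30.4, 27.8 and 42.5 CPM in Mef2>Deaf1, against 17.8, 18.1 and 28.1 CPM in Mef2>+. The Deaf1 RNAi libraries lay under their control, and the Mef2>Deaf1 libraries were mostly above theirs with a slight overlap. Neither difference passed alone (−0.72, adjusted p = 0.0964, and 0.65, adjusted p = 0.118), but their difference did (−1.38, SE 0.36, adjusted p = 0.0207). The call of the difference of effects was lost without replicate 1 or 2 of Mef2>+. It was also lost without replicate 1 of Mef2>whiteRNAi or of Mef2>Deaf1RNAi (−1.33 to −1.23 over these fits, adjusted p from 0.0510 to 0.0548). With only the genotypes compared in the model, the difference under Deaf1 RNAi alone passed (−0.70, adjusted p = 0.0470). CG10924 was higher in Mef2>whiteRNAi than in Mef2>+ (1.16, SE 0.25, adjusted p = 0.0102), where Pepck was lower. That call was lost with only these 6 libraries in the model (adjusted p = 0.0518).

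The genes of the surrounding pathway are given for comparison. Of 11 glycolytic genes, a list the study drew from these samples and so no independent evidence of direction, 7 rose under Deaf1 RNAi (median 1.14). Enolase (Eno, 1.53) and phosphofructokinase (Pfk, 1.37) had the highest values, and Hex-A (0.014) and Gapdh2 (0.95), which missed the threshold, the lowest. Under overexpression 10 fell (median −1.52), from aldolase (Ald, −1.76) and Pgi (−1.65) to Pgk (−0.998), while Hex-A (−0.41) missed the threshold. Of 6 genes for the entry of pyruvate into mitochondrial metabolism, 4 rose under Deaf1 RNAi and 4 fell under overexpression, in both cases the 4 subunits of pyruvate dehydrogenase. CG5261, the E2 subunit, differed by 0.92 and −0.63, and l(1)G0334, an E1 subunit, by 0.81 and −0.54. The pyruvate carrier CG14290 (0.45 and −0.37) and the pyruvate carboxylase CG1516 (0.19 and 0.38) passed in neither.

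Of 6 further enzymes that exchange reducing equivalents, 4 rose under Deaf1 RNAi (median 0.73) and 3 fell under overexpression (median −0.80). The aspartate aminotransferase Got1 (1.14) and the mitochondrial malate dehydrogenase Mdh2 (1.06) had the highest values under Deaf1 RNAi, and Mdh1 (0.58) and Idh (0.16, which missed the threshold) the lowest. Under overexpression Mdh2 (−1.23) and Got2 (−0.95) fell furthest, and Mdh1 (−0.38) and Idh (−0.21) missed the threshold. Of 4 regulatory genes, the nuclear receptor ERR, the hypoxia factor subunits sima and tgo, and Hph, whose prolyl hydroxylase acts on the Sima protein, 0 passed in edgeR's test in these 2 comparisons and 0 had an unadjusted p under 0.05, and their values ran from −0.091 to 0.016 under Deaf1 RNAi and −0.15 to 0.053 under overexpression.

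Over the 15 libraries, the genes whose log2 CPM ran most like a member's among 8016 candidates were as follows. For ImpL3 they were the glycolytic genes Pglym78, Ald and Gapdh2 (Pearson's r = 0.98 for each). For Gpdh they were CG7766, the myosin light chain gene Mlc1 and CG8417 (0.98 each). For Gpo-1 they were CG33138 (0.98), Tsp42Eg (0.95) and the myosin heavy chain gene Mhc (0.95). For Argk they were Mlp84B, the giant muscle protein gene sls and l(1)G0334 (0.96 each), and for fbp CG1572, CG5541 and the tropomyosin gene Tm2 (0.98, 0.98 and 0.97). Pepck had CG9147 (0.94), SK (0.89) and Sr-CI (0.86), and glob1 had CG33156 (0.88), CG34215 (0.87) and CG31918 (0.85). Among the members themselves the closest pairs were Gpdh with fbp and with Gpo-1 (0.93 each) and ImpL3 with Gpdh (0.91), and Pepck had r of −0.31 to 0.47 with the others.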

How the data were processed

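RNA of 15 libraries was made into stranded mRNA libraries and sequenced as paired reads. The authors aligned reads with STAR to BDGP5 and counted them per gene with HTSeq, and base calls came from CASAVA 1.7 per the labels. The deposited values are unnormalized counts per gene symbol. Entries on no gene (9.31 to 15.0% of each file) were left out.

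Counts were tested with edgeR 4.0.16 (R 4.3.3): TMM scaling, filterByExpr by genotype, a quasi-likelihood fit of all 15 libraries with a mean per genotype, and Benjamini-Hochberg adjustment over 10930 genes. The study used limma voom, which was run as an alternative (limma 3.58.1), as was DESeq2 1.42.0. CPM are TMM-scaled. Correlations used log2 CPM with a prior count of 2. The fit was tested on simulated data. P-values of the main fit set the difference between genotypes against a spread between libraries that was estimated over all 15 libraries. No pair of replicates agreed within sampling noise.

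The members and gene lists were chosen with earlier results of these data known. Named genes were the 7 members, their related copies, the 2 highest and 2 lowest of a described list, the 3 genes most alike to each member, and Deaf1 and sgg as checks. Exon lengths and coordinates are from BDGP6, not the authors' build. Same-numbered libraries of Mef2>Deaf1 and Mef2>+ deviated together (r = 0.30, 0.24 and 0.48), but the main fit held no pairing. A fit with the replicate number as a block was run as an alternative. With it 4 of the 7 genes passed under overexpression in place of 5, fbp being lost (adjusted p = 0.0841). A pairing by number would rest on the data, not on a stated batch.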

Additional observations from a re-analysis of the deposited data

Results flagged for a closer look

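The effect of Deaf1 RNAi (against Mef2>whiteRNAi) and that of Deaf1 overexpression (against Mef2>+) differed by the test of the difference itself for 7 genes. On the log2 scale the RNAi effect minus the overexpression effect was 3.91 for Gpo-1, 3.16 for ImpL3, 2.63 for Gpdh, 2.27 for Argk, 1.35 for fbp, 0.72 for glob1 and −1.38 for CG10924. Each effect has its own control, and the 2 controls differ from each other for Gpo-1, Gpdh, fbp and CG10924. The gap between the controls is contained in full in each of these differences.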

How the results depend on the processing

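The count of the 7 genes passing under Deaf1 RNAi, 2, was 4 with DESeq2, 1 without a filter on low counts, 1 with only the genotypes compared, 1 with the replicate number as a block and 0 with the controls exchanged. That of Deaf1 overexpression, 5, was 1 with the controls exchanged, that of the libraries labelled Gsk3CA, 0, was 1, and that of Mef2>whiteRNAi against Mef2>+, 4, was 0 with only the genotypes compared. With the controls exchanged the sign turned under Deaf1 RNAi for Gpdh (−0.20), Gpo-1 (−0.14), Pepck (−0.28), fbp (−0.24) and CG10924 (0.44), under overexpression for Argk (0.25), fbp (0.12) and CG10924 (−0.51), and in the libraries labelled Gsk3CA for ImpL3 (0.084), Gpdh (0.64), Gpo-1 (1.20, which passed), Argk (0.43), Pepck (0.82), fbp (0.50) and glob1 (0.29). In the last comparison glob1 was also 0.010 with DESeq2's size factors in edgeR, 0.011 with DESeq2 and 0.013 with at least 10 counts in every library.

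Among all genes, 963 passed under Deaf1 RNAi, 1654 with DESeq2 and 599 with the block. Under overexpression 1360 passed, and 717 with the controls exchanged. In the libraries labelled Gsk3CA 1536 passed, against 1003 with at least 10 counts in every library, 966 with the block, 85 with only the genotypes compared and 3502 with the controls exchanged. Between the controls 1799 passed and 665 with only the genotypes compared. Between Mef2>Deaf1 and the libraries labelled Gsk3CA 3297 passed, 1429 higher and 1868 lower, against 862 and 2210 with DESeq2's size factors, and in total 1671 with at least 10 counts and 1020 with only the genotypes compared.

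The fits without 1 library called 0 to 5 of the 7 genes and 294 to 1159 genes in all under Deaf1 RNAi, 711 to 958 genes under overexpression, 445 to 2837 in the libraries labelled Gsk3CA, 1 to 6 of the 7 and 818 to 2062 genes between the controls, 1172 to 1857 genes for the difference of the effects, and 2 to 5 of the 7 and 1145 to 4467 genes for Mef2>Deaf1 against the libraries labelled Gsk3CA. The sign turned within these ranges for glob1 under Deaf1 RNAi (−0.12 to 0.0093), for Pepck in the difference of effects (−0.062 to 0.84), and in the libraries labelled Gsk3CA for Gpo-1 (−0.75 to 0.066), Pepck (−0.66 to 0.17), glob1 (−0.16 to 0.0046) and CG10924 (−0.46 to 0.051). Where not given above or in the report, the cause was not tested.

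Same-numbered libraries did not deviate together in Deaf1 RNAi against white RNAi (r from −0.23 to −0.0061). In the libraries labelled Gsk3CA against Mef2>+ they deviated in opposite directions (−0.78 to −0.56). Between the controls r was 0.18, −0.030 and 0.22 (replicates 1, 2 and 3). With 3 libraries per genotype these values cannot show whether the number stands for a batch. The block changed the call of Argk under Deaf1 RNAi (adjusted p = 0.0751). Of the 7 genes' results it changed no call beyond those of Argk, fbp and Gpdh given here and in the report. The depth of the libraries limits the related copies most, since several had fewer than 10 counts in most libraries.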
